A study of Mus musculus with 12 samples.

Results

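Monocyte markers, Fc receptors and leukocyte integrins were followed in the mouse retina after optic nerve injury as 10 listed genes: Ly6c2, Fcgr1, Fcgr2b, Fcgr3, Fcgr4, Fcer1g, Itgam, Itgb2, Ptprc and Spi1. They were chosen by symbol for what their products do, with earlier results of these data known. All 10 were found among the 25655 genes listed, of which 19115 had a count in at least 1 library. The retinas came from C57BL/6J mice, 8 to 10 weeks old, whose optic nerve was crushed (ONC) and which received 1 injection into the vitreous. Whole retinas were taken 2 days later for total RNA sequencing. The PBS group got vehicle and is the control. The fluvastatin group got a statin, an inhibitor of HMG-CoA reductase. The MBV group got matrix-bound nanovesicles, which are vesicles released from decellularised porcine urinary bladder matrix. The remaining group received MBV and fluvastatin together and was not analysed here, because the count columns of its table carry no library name. Every group had its nerve crushed and its vitreous injected, so no library stands for an uninjured or uninjected retina, and each group has 3 libraries.

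Circulating monocytes and neutrophils enter injured nervous tissue and join microglia, the macrophages that live there. Nearly all of these cells carry CD45 (Ptprc) and the integrin CD11b/CD18 (Itgam with Itgb2), bind antibody-coated material through Fcγ receptors, and depend on the transcription factor PU.1 (Spi1). Ly6C, encoded in part by Ly6c2, is abundant on inflammatory monocytes and low on microglia, so Ly6c2 separates these cell types while the other genes are shared between them.

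Depth ranged from 21349516 to 30992040 counts per library. The library names carry numbers from 1 to 6 in 2 series, which are read here as 2 library sets. The labels themselves name no set or batch. On this reading the 3 MBV and 3 fluvastatin libraries belong to 1 library set and the PBS libraries to another. MBV can then be compared with fluvastatin inside a set. In each comparison with PBS, by contrast, treatment and library set cannot be told apart. MBV replicate 3 stood apart from its group: 236 of 15056 genes (1.57%) lay more than 2-fold from the mean of the other 2 MBV libraries, against 0.159% to 0.857% in the other 8 libraries. The values that it moves most are given with and without it. The study describes its replicates as biological, and p-values measure the spread between these libraries. In bulk tissue, fewer cells of a type and less RNA per cell cannot be told apart.

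Ly6c2 (chromosome 15, 74980007 to 74983819, minus strand, GRCm39) lies beside a near-copy, Ly6c1 (74915867 to 74920679), which endothelial cells also express. The coding sequences of the main GENCODE transcripts are 396 bases each and differ at 9 bases, an identity of 97.7%. Of the 322 windows of 75 bases, the length of 1 read, 114 (35.4%) are identical in the pair. The stretch in which they differ most is shown because it is what lets a read be assigned to one or the other. It covers coding bases 1 to 75, with the 6 differing bases in capitals.
Ly6c2: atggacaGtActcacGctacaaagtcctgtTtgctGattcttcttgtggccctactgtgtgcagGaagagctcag
Ly6c1: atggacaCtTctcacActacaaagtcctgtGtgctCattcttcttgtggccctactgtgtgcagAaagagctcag
Counts of Ly6c2 and Ly6c1 are therefore uncertain where a read falls in a shared window, and both genes are given below.

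PU.1 binds purine-rich sites, and 8 of the 10 genes (not Itgb2 and Spi1) have a promoter in the RefSeq table (GRCm38.p6). The 250 bases before each start site were searched on both strands for the letters GAGGAA, which form part of many such sites. At least 1 start site of 6 of the 8 genes held them (Ly6c2, Fcgr1, Fcgr3, Fcgr4, Itgam and Ptprc), while 25.9% of the 27025 genes in the table did. GAGGAA followed by GT was found upstream of Ly6c2 and Fcgr4 and of 2.79% of all genes. The near-copy Ly6c1, which is not one of the 10, also held this longer form, upstream of its other listed start site. A match of letters is a description of the sequence and shows no binding. The stretches of Ly6c2 and Fcgr4, which hold the longer form, and of Itgam, which holds GAGGAA on each strand, are shown with that of Ly6c1, for Ly6c2 and Ly6c1 at the first listed start site, with GAGGAA or its reverse complement in capitals.
Ly6c2, chr15:75111972-75112221, minus strand: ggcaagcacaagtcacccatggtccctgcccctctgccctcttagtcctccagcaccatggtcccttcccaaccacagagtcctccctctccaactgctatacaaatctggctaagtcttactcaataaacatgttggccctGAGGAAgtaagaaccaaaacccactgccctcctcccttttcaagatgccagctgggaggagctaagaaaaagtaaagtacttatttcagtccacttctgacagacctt
Ly6c1, chr15:75048838-75049087, minus strand: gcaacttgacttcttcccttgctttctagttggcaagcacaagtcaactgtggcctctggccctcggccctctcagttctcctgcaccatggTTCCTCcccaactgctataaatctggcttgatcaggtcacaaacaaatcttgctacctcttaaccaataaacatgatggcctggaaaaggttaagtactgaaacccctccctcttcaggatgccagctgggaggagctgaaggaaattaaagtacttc
Fcgr4, chr1:171018676-171018925, plus strand: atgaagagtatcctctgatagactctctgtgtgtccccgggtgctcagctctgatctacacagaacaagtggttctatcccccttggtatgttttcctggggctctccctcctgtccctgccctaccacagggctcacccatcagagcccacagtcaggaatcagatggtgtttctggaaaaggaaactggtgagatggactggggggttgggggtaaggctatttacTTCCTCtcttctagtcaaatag
Itgam, chr7:128062390-128062639, plus strand: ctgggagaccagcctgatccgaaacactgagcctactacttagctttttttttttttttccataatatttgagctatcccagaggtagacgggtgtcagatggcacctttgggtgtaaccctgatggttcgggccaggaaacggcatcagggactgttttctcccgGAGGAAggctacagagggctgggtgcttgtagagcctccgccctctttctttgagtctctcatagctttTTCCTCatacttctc
Aligned to each other, the Ly6c2 and Ly6c1 stretches were identical at 171 of 210 aligned bases (81.4%), a share that leaves out 80 gap positions.

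None of the 10 genes passed an FDR of 0.05 in any of the 3 comparisons that could be made, by edgeR's quasi-likelihood test or by DESeq2. The counts are read against the share of all genes called by edgeR, which was 0.0588% (11 of 18721 genes) for MBV against fluvastatin, 26.1% (4937 of 18897) for MBV against PBS and 19.6% (3687 of 18818) for fluvastatin against PBS. At an unadjusted p under 0.05, edgeR gave 4, 4 and 0 of the 10 genes in these comparisons and DESeq2 gave 5, 4 and 0. The share of all genes under that p in edgeR was 10.7%, 37.8% and 32.5%, so the 4 genes of MBV against PBS were close to the share of all genes. The median log2 fold change of the 10 genes was 0.73 for MBV against fluvastatin and 0.57 for MBV against PBS, with all 10 values above 0 in each, and 0.0077 for fluvastatin against PBS, with 5 above 0. Over all genes tested, the medians were 0.011, 0.0095 and −0.0072. Leaving out a single library made some genes pass for MBV against PBS: Ly6c2, Fcgr1 and Fcer1g without MBV replicate 2 (FDR 0.0318, 0.0445 and 0.0271), Ly6c2 without MBV replicate 1 (0.0445) and Itgam without PBS replicate 3 (0.0272). No other library left out gave a call in any of the 3 comparisons. Both MBV comparisons share the same MBV libraries, so their directions are not separate evidence.

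The levels turned on 1 library. Measured in CPM, counts scaled to a common library size with TMM factors, all 10 genes were highest of the 9 libraries in MBV replicate 3, where 11.7% of the 15785 genes with a mean of at least 5 counts were. For 9 of the 10 the level there was at least 1.5 times the mean of MBV replicates 1 and 2, against 5.49% of genes. MBV replicate 2 was the lowest MBV library for all 10 genes (35.2% of genes), and PBS replicate 3 the highest PBS library for 9 of them (39.9%). These ways of counting and the minimum of 5 counts were chosen after the values had been seen, and they describe these libraries only.

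**Figure D1:**
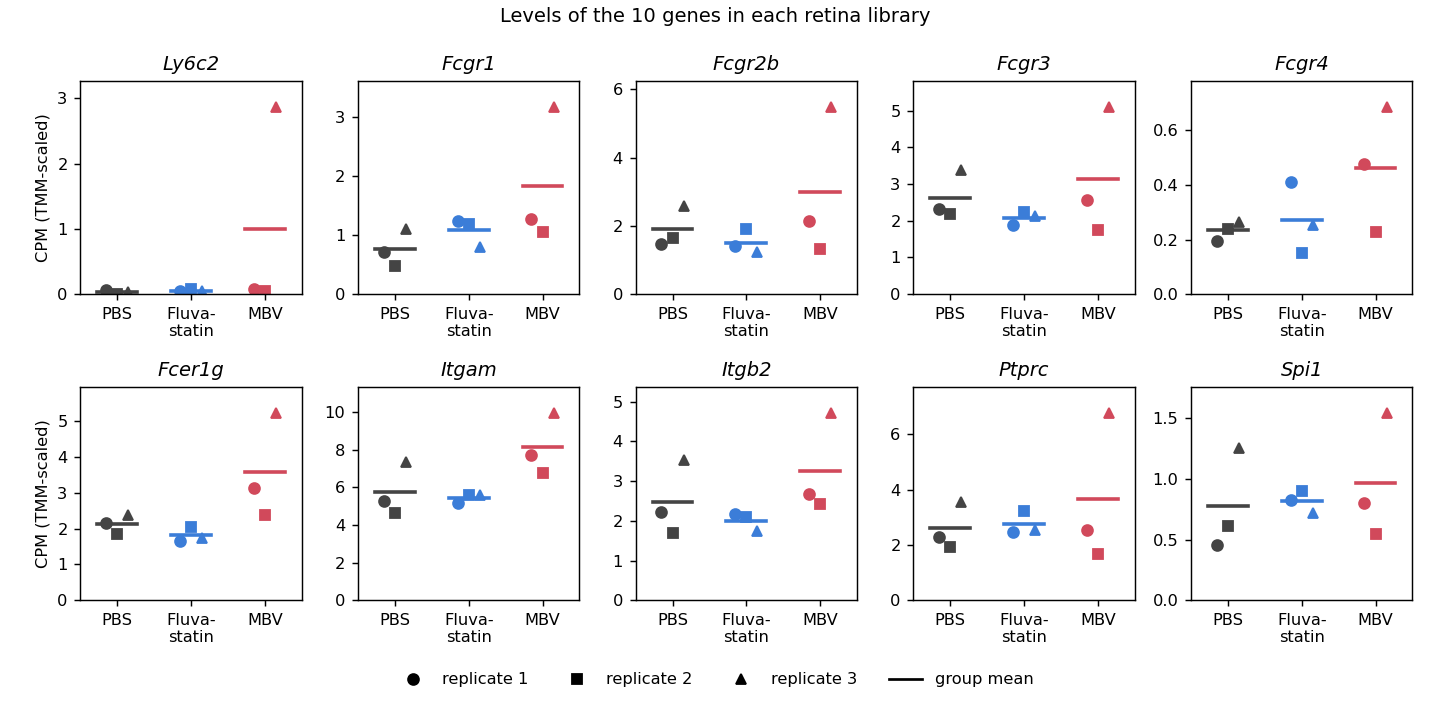
Level of each of the 10 genes (CPM, TMM-scaled, each panel with its own axis from 0) in the 3 PBS, 3 fluvastatin and 3 MBV libraries; symbols mark the replicate number and bars the group mean. MBV replicate 3 is the highest point in every panel, from 0.684 CPM for Fcgr4 to 9.92 CPM for Itgam.

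Ly6c2, the monocyte marker of the list, had the steepest difference, and it rested on very few counts outside 1 library. Its counts were 2, 0 and 1 in the PBS libraries, 1, 2 and 1 in the fluvastatin libraries and 2, 1 and 67 in the MBV libraries. Away from MBV replicate 3, no library exceeded 2 counts, a level at which Ly6c2 was not distinguishable between groups at this depth. In CPM, MBV replicate 3 stood at 2.87 and the next library, fluvastatin replicate 2, at 0.0748. The ratio of MBV replicate 3 to the other 2 MBV libraries was 47.1, with a 95% exact counting interval from 15.4 to 234. Summed over groups and scaled for depth, MBV held 27.8 times the Ly6c2 of PBS (70 against 3 counts, counting interval 9.12 to 138), and 1.75 times (0.235 to 13.1) when MBV replicate 3 was left out. These intervals cover counting error only, not the spread between libraries. The fitted log2 fold change was 4.64 ± 1.65 (SE) against PBS, with an edgeR FDR of 0.0684, and 4.08 ± 1.51 against fluvastatin, with an FDR of 0.412. Without MBV replicate 3 these became 0.73 ± 1.32 (FDR 0.718) and 0.17 ± 1.20 (FDR 0.965). Fluvastatin against PBS gave 0.56 ± 1.07 from 4 and 3 counts (FDR 0.753).

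Ly6c1 varied less between libraries. Its counts were 105, 106 and 111 in PBS, 89, 145 and 90 in fluvastatin and 120, 102 and 153 in MBV. The ratio of MBV replicate 3 to the other MBV libraries was 1.45 (counting interval 1.17 to 1.79), and the log2 fold change of MBV against PBS was 0.46 ± 0.18 with an edgeR FDR of 0.0903. Whether reads moved between the pair was not tested.

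The activating high-affinity IgG receptor Fcgr1 (chromosome 3, 96190225 to 96201285, minus strand) had levels of 0.715, 0.478 and 1.10 CPM in PBS, 1.24, 1.20 and 0.806 in fluvastatin and 1.28, 1.05 and 3.17 in MBV. The PBS libraries lay lowest on average and overlapped the fluvastatin and MBV libraries, and MBV replicate 3 stood at 2.69 times its group (1.88 to 3.86). Against PBS, MBV gave a log2 fold change of 1.25 ± 0.46 (edgeR FDR 0.0774), which was 0.62 ± 0.36 without MBV replicate 3 (FDR 0.236). Against fluvastatin it was 0.75 ± 0.41 (FDR 0.552), and fluvastatin against PBS was 0.51 ± 0.34 (FDR 0.340).

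The low-affinity receptor genes lie in 1 cluster on chromosome 1, where Fcgr2b (170786186 to 170804116, minus strand) encodes the inhibitory receptor, and Fcgr3 (170878743 to 170892504, minus strand) and Fcgr4 (170846489 to 170857330, plus strand) activating ones. Fcgr2b stood at 1.46, 1.64 and 2.58 CPM in PBS, 1.40, 1.91 and 1.23 in fluvastatin and 2.16, 1.33 and 5.48 in MBV. MBV replicate 3 stood at 3.07 times its group for this inhibitory receptor (2.32 to 4.07), and the other 2 MBV libraries lay within the range of the PBS and fluvastatin libraries. Fcgr3 stood at 2.31, 2.18 and 3.38 CPM in PBS, 1.90, 2.24 and 2.12 in fluvastatin and 2.56, 1.74 and 5.09 in MBV. Fcgr4 was rare, with 6, 7 and 7 counts in PBS, 10, 4 and 6 in fluvastatin and 13, 5 and 16 in MBV. At these counts the ratio of 1.87 for MBV replicate 3 had an interval that spanned 1 (0.894 to 3.89), the only gene of the 10 where it did. Against PBS the log2 fold changes of MBV were 0.65 ± 0.46 for Fcgr2b, 0.25 ± 0.36 for Fcgr3 and 0.98 ± 0.48 for Fcgr4, and none passed the threshold (edgeR FDR 0.347, 0.645 and 0.173). Without MBV replicate 3, Fcgr2b and Fcgr3 changed sign, to −0.10 and −0.28, and Fcgr4 stood at 0.62. A share of 4.92% of the 75-base windows of the longest Fcgr3 transcript also occurs in Fcgr2b. For Fcgr2b, 12.4% of the windows occur in other genes, among them Cplx2, Rab3c and Aldh1a2. Fcgr2b also shares 355 exon bases with Gm38204, an annotated gene on the opposite strand.

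Fcer1g (chromosome 1, 171057141 to 171061934, minus strand) encodes the common γ chain, the signalling partner that the activating Fc receptors need at the cell surface. It stood at 2.15, 1.84 and 2.39 CPM in PBS, 1.65, 2.06 and 1.74 in fluvastatin and 3.14, 2.38 and 5.22 in MBV. All 3 MBV libraries lay above all 3 fluvastatin libraries, whereas MBV replicate 2 fell just below the highest PBS library. The log2 fold change of MBV against fluvastatin was 0.98 ± 0.28, with an unadjusted p of 0.00676 but an edgeR FDR of 0.315, and without MBV replicate 3 it was 0.61 ± 0.23 (FDR 0.239). Against PBS it was 0.74 ± 0.28 (FDR 0.0808), and 0.38 ± 0.21 (FDR 0.223) without that library.

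Itgam (chromosome 7, 127661812 to 127717663, plus strand), the αM chain of CD11b/CD18, had the highest CPM of the 10 genes, not scaled for length. It stood at 5.30, 4.64 and 7.33 CPM in PBS, 5.19, 5.57 and 5.60 in fluvastatin and 7.71, 6.76 and 9.92 in MBV. The ratio of MBV replicate 3 to its group was 1.36 (1.15 to 1.61), the smallest of the 10. Each MBV library exceeded each fluvastatin library, while PBS replicate 3 overlapped the MBV range. MBV against fluvastatin gave a log2 fold change of 0.58 ± 0.15, an unadjusted p of 0.00396 and an edgeR FDR of 0.284, the lowest FDR of the 10 genes in that comparison. Without MBV replicate 3 it was 0.41 ± 0.14 (FDR 0.206), and against PBS 0.49 ± 0.19 (FDR 0.0896) with all libraries. Itgam shares 3450 exon bases with Gm49368, an annotated gene on the same strand, and 70.2% of the windows of its longest transcript occur there. Gm49368 had 0 counts in the PBS libraries, 1, 0 and 0 in fluvastatin and 12, 0 and 2 in MBV, so few reads were assigned to it.

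The partner chain Itgb2 (chromosome 10, 77366086 to 77401542, plus strand), shared by all CD18 integrins, stood at 2.21, 1.71 and 3.53 CPM in PBS, 2.18, 2.09 and 1.74 in fluvastatin and 2.67, 2.42 and 4.71 in MBV. It too separated MBV from fluvastatin without overlap, and PBS replicate 3 again lay inside the MBV range. The log2 fold change of MBV against fluvastatin was 0.70 ± 0.27 (edgeR FDR 0.413) and fell to 0.34 ± 0.21 (FDR 0.523) without MBV replicate 3. Fcer1g, Itgam and Itgb2 were thus the 3 of 10 genes with all MBV libraries above all fluvastatin libraries, an order that 9.14% of the 15785 genes showed. None of the 10 had all MBV libraries above all PBS libraries (23.3% of genes), and none had all fluvastatin libraries below all PBS libraries (22.1%).

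Ptprc (chromosome 1, 137990599 to 138103446, minus strand) encodes CD45, the tyrosine phosphatase of nucleated blood cells and their tissue relatives. Its levels were 2.28, 1.94 and 3.57 CPM in PBS, 2.47, 3.22 and 2.54 in fluvastatin and 2.56, 1.69 and 6.76 in MBV. MBV held both the highest and the lowest of the 9 libraries, at a ratio of 3.11 (2.42 to 4.02) for replicate 3 over the other 2. The log2 fold change of MBV was 0.42 ± 0.42 against fluvastatin and 0.49 ± 0.46 against PBS (edgeR FDR 0.725 and 0.475), and without MBV replicate 3 the sign turned, to −0.36 and −0.28.

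Spi1 (chromosome 2, 90912735 to 90946101, plus strand), which encodes PU.1, stood at 0.455, 0.614 and 1.25 CPM in PBS, 0.824, 0.897 and 0.721 in fluvastatin and 0.804, 0.548 and 1.54 in MBV. PBS replicate 3 stood at 2.35 times its group (1.40 to 3.95), about as far out as MBV replicate 3 at 2.23 times (1.36 to 3.68). The log2 fold changes were small beside their errors, at 0.24 ± 0.39 for MBV against fluvastatin, 0.32 ± 0.47 for MBV against PBS and 0.094 ± 0.38 for fluvastatin against PBS. The first of these became −0.25 and the second −0.16 without MBV replicate 3.

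For the 10 genes together, leaving out MBV replicate 3 lowered the median log2 fold change of MBV from 0.73 to 0.19 against fluvastatin, with 8 genes above 0, and from 0.57 to 0.18 against PBS, with 6 above 0. Against fluvastatin, 2 genes then kept an unadjusted p under 0.05 in edgeR, Fcer1g and Itgam, and 0 did against PBS. Over all genes, 14.1% and 39.4% did so in those fits, and 1.06% and 30.1% passed an FDR of 0.05, which 0 of the 10 did.

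**Figure D2:**
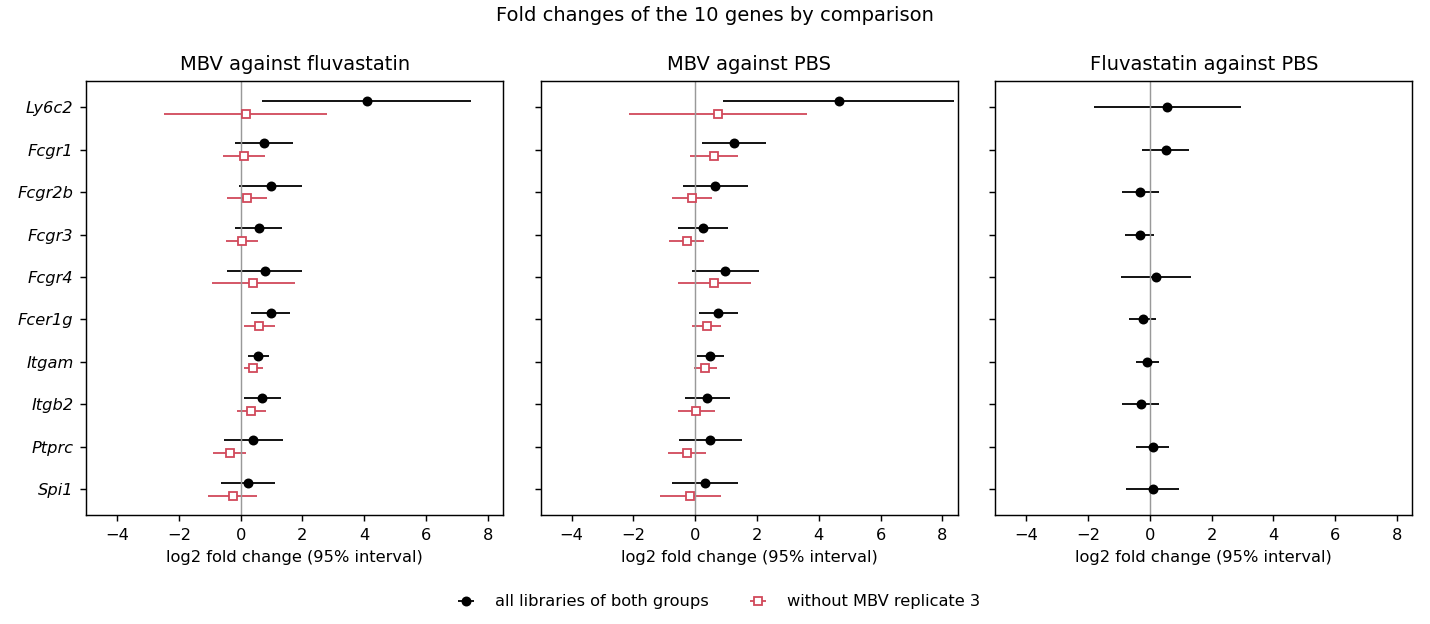
log2 fold change with its 95% interval for each of the 10 genes in the 3 comparisons (edgeR, 3 libraries per group); filled circles use all libraries of both groups and open squares leave out MBV replicate 3. Without that library the Ly6c2 estimate falls from 4.08 to 0.17 against fluvastatin, and Ptprc and Spi1 cross 0 in both MBV comparisons.

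Between fluvastatin and PBS, edgeR called no difference in any of the 10 genes. The largest log2 fold changes were 0.56 for Ly6c2, on 4 and 3 counts, and 0.51 for Fcgr1, and the lowest were −0.32 for Fcgr3 and −0.31 for Fcgr2b. The 95% interval was narrowest for Itgam, from −0.44 to 0.29, and for Fcgr3 it ran from −0.79 to 0.14, so values of either sign within those bounds were not distinguishable. The sign turned for Spi1, Ptprc, Itgam, Itgb2 or Fcgr4 when single libraries were left out.

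Compared per kilobase of annotated exon, the γ chain Fcer1g was the most abundant message in PBS retinas at 1.83 ± 0.238 CPM per kb (SD, n = 3). Itgam followed at 1.13 ± 0.274, Fcgr3 at 0.849 ± 0.213 and Itgb2 at 0.765 ± 0.291, whose ranges of 1 SD overlap. Fcgr2b, Spi1, Fcgr1, Fcgr4 and Ptprc lay between 0.138 and 0.324, and Ly6c2 lay at 0.0112 ± 0.0107. In MBV retinas the same scale gave 3.09 ± 1.27 for Fcer1g, 1.59 ± 0.317 for Itgam and 0.326 ± 0.530 for Ly6c2, whose SD exceeded its mean. These levels depend on the exon models, which for Ptprc sum to 18764 bases over all its transcripts.

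The 10 genes varied together. Over the 9 libraries, the 45 pairs among them had a median Pearson r of 0.828 (from 0.623 to 0.963), and 0.872 with each group centred on its mean. Without MBV replicate 3 the median was 0.446 over 8 libraries, with 44 of the 45 pairs above 0. These are descriptions, since the points share libraries, depth and the same outlying library. The genes outside the list whose levels followed the 10 most closely were Vav1 (r = 0.976), Wdfy4 (0.976), H2-Ab1 (0.974), Ccr2 (0.973), Ptpn6 (0.965) and Stab1 (0.962), out of 13964 compared over the 9 libraries. With groups centred, they were Wdfy4, Cct5, Vav1, Lyz2, Cox4i1 and Ms4a6c, from 0.996 to 0.981. Most of these peaked in MBV replicate 3, such as H2-Ab1 with 335 counts against 28 to 83 in the other 8 libraries and Ccr2 with 222 against 8 to 65. Cct5 and Cox4i1 did not peak there over the 9 libraries, at 131 and 111 CPM against 121 to 141 and 86.4 to 130 elsewhere. Within MBV, the scale that centring keeps, replicate 3 was still the highest for both. The other MBV libraries stood at 124 and 121 CPM for Cct5 and at 90.8 and 86.4 for Cox4i1.

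Related lists were read by the same measure. Other monocyte markers, which include Ccr2, the receptor that brings monocytes to CCL2, and the lysozyme Lyz2, had a median ratio of MBV replicate 3 to its group of 12.6, and all 9 had counting intervals above 1. Of the 10 genes, 9 had such intervals, and of the 15781 genes with a mean of at least 5 counts 18.1% did, with a median ratio of 1.00. Lyz2 had 1307 counts there, against 166 and 70 in the other MBV libraries and 63 to 397 in the PBS and fluvastatin libraries. The same ratio was 2.28 for the 10 genes, 1.60 for 12 Fc receptor signalling genes and 1.19 for 10 homeostatic microglia markers, of which 2 had intervals above 1. It was 0.89 for 10 myeloid transcription factors other than Spi1 and 1.25 for 9 other integrins and integrin activators. Markers of tissue other than blood were also above their group in this library. The median ratio was 2.51 for 6 pigment cell markers, all with intervals above 1, and 1.21 for 9 retina markers, 7 of them with intervals above 1. Neutrophil markers had a median of 2.37, with 3 of 8 intervals above 1, and lens markers one of 0.519, with 6 of 6 intervals below 1 (15.9% of all genes). In PBS replicate 3 the medians were 2.33 for other monocyte markers, 1.59 for the 10 genes, 1.54 for Fc receptor signalling, 1.09 for microglia markers and 1.51 for transcription factors. Intervals above 1 were found there for 7 of the 10 genes and for 17.0% of all genes.

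**Figure D3:**
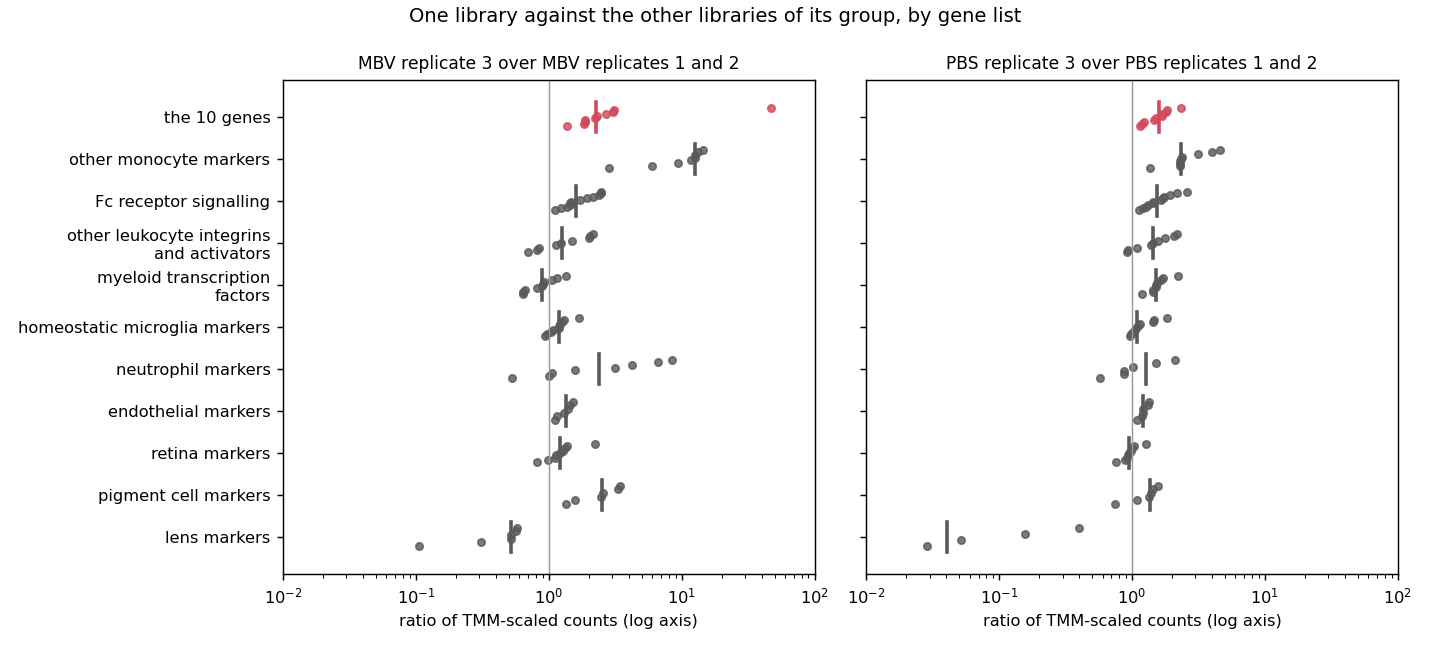
Ratio of MBV replicate 3 (left) and of PBS replicate 3 (right) to the other libraries of their group for single genes (points, log axis) with list medians (bars); genes with a ratio of 0, or with no count in the other libraries, are not drawn. In MBV replicate 3 the medians are 2.28 for the 10 genes, 12.6 for other monocyte markers and 1.19 for homeostatic microglia markers.

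Marker lists of other cells followed MBV replicate 3 to unlike degrees, and their part in the levels above was not tested. The summed level of 9 other monocyte markers was 8.97 to 21.4 CPM in PBS, 4.96 to 7.22 in fluvastatin and 4.70, 10.5 and 77.4 in MBV, the last in replicate 3. Lyz2 made up 55.9 CPM of that last value. Homeostatic microglia markers summed to 92.9 to 107 CPM in PBS, 81.5 to 94.3 in fluvastatin and 88.1 to 108 in MBV. Neutrophil markers summed to 1.47 to 2.01 CPM in PBS, 0.783 to 1.01 in fluvastatin and 1.10 to 2.99 in MBV. The neutrophil marker Ly6g was at 0 in every library and Mmp8 at 3 counts or fewer, which allows no reading of neutrophils from those genes. T and NK cell markers summed to at most 1.58 CPM in any library, with Cd3e, Cd3d, Cd3g, Nkg7, Klrb1c and Cd2 at 3 counts or fewer, and the B cell markers Ms4a1 and Ighm were likewise at 3 or fewer. Endothelial markers summed to 248 to 304 CPM in PBS, 232 to 258 in fluvastatin and 224 to 274 in MBV. Most of that sum was Kdr, with means of 246.7 CPM in PBS, 213.2 in fluvastatin and 212.5 in MBV. For MBV against PBS, 5 of the 6 endothelial markers, Ly6c1 among them, were above 0, with a median log2 fold change of 0.44. All 6 had an unadjusted p under 0.05 in edgeR, against 37.8% of all genes, and 1 passed an FDR of 0.05. The retina markers, at 28300 to 46150 CPM, matched the labelled tissue.

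Markers of other eye tissue also differed between groups, and their part in the levels above was not tested either. Pigment cell markers summed to 98.6 to 146 CPM in PBS, 36.0 to 44.8 in fluvastatin and 27.1 to 50.3 in MBV. Lens markers summed to 0.456 to 4.84 CPM in PBS, 1.74 to 19.3 in fluvastatin and 58.3 to 142 in MBV. Within MBV, replicate 3 was highest for the pigment markers and lowest for the lens markers.

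**Figure D4:**
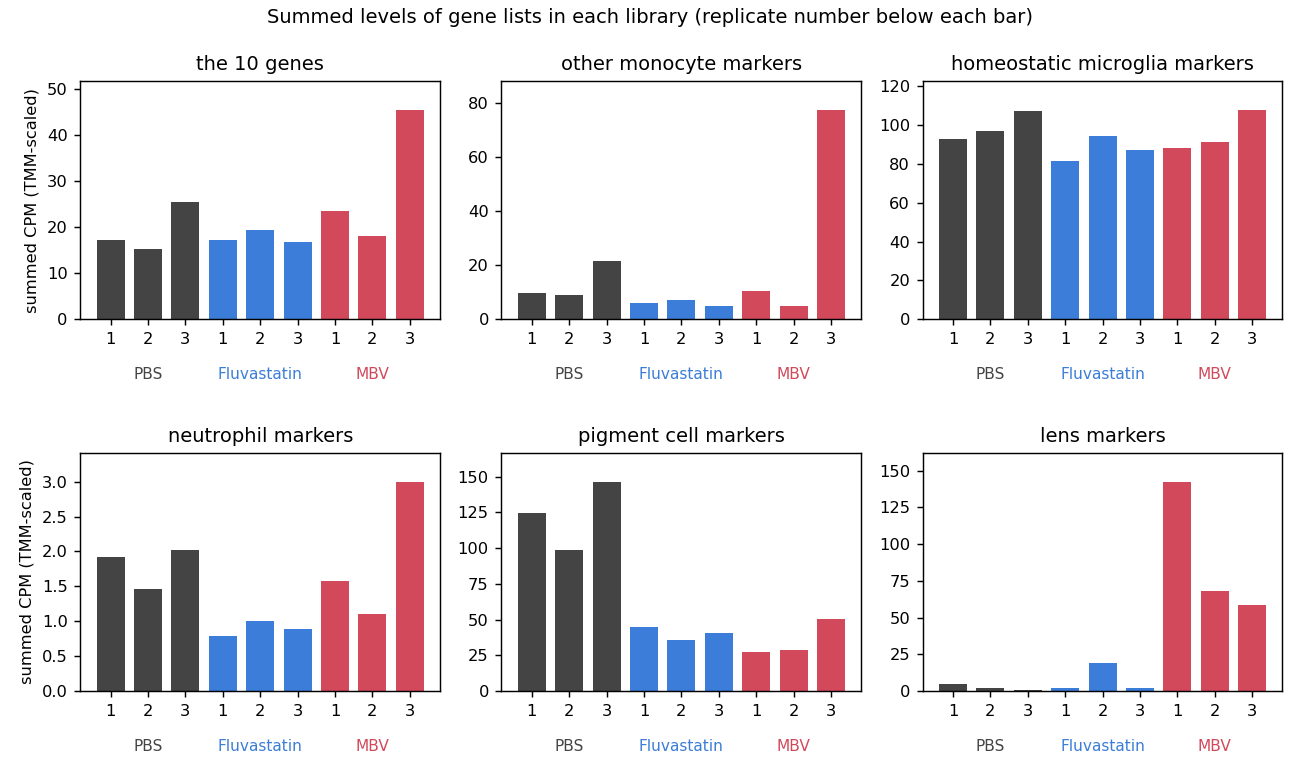
Summed CPM (TMM-scaled, axes from 0) of the 10 genes and of 5 marker lists, 1 bar for each of the 9 libraries with its replicate number. MBV replicate 3 reaches 45.4 CPM for the 10 genes and 77.4 CPM for other monocyte markers, while homeostatic microglia markers stay between 81.5 and 108 CPM in all libraries.

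The related lists are read against the 26.1% of all genes called for MBV against PBS. In that comparison, 1 of 12 Fc receptor signalling genes rose, the kinase Lyn (log2 fold change 0.46 ± 0.14, edgeR FDR 0.0405). Of 9 other leukocyte integrins and integrin activators tested, 2 rose, the αL chain Itgal, another partner of Itgb2 (1.50 ± 0.43, FDR 0.0328) and the α4 chain Itga4 (0.31 ± 0.085, FDR 0.0260). Itga4 averaged 143 CPM in PBS and 179 in MBV, against 0.462 and 1.30 for Itgal. The ratio of MBV replicate 3 to its group was 0.816 for Itga4 (0.785 to 0.848), below 1. Which cells held the Itga4 RNA was not tested. Of 10 myeloid transcription factors, 3 rose: Cebpa (1.06 ± 0.25, FDR 0.0150), Runx1 (0.66 ± 0.20, FDR 0.0394) and Fli1 (0.69 ± 0.21, FDR 0.0408). Without MBV replicate 3, Cebpa, Runx1 and Itga4 still passed (FDR 0.00119, 0.0122 and 0.000374), while Lyn, Itgal and Fli1 did not (FDR 0.0639, 0.0670 and 0.0707), and Cebpb passed as well (0.86 ± 0.23, FDR 0.0144). Without PBS replicate 1, PBS replicate 2 or MBV replicate 1, none of the 6 passed, with FDR from 0.0505 to 0.152, and without MBV replicate 2 Lyn, Runx1 and Itga4 did not (0.0730, 0.122 and 0.0753). These counts, 1 of 12, 2 of 9 and 3 of 10, are near or under the share of all genes. Of 9 other monocyte markers, 0 passed by edgeR or DESeq2 for MBV against PBS and 2 had an unadjusted p under 0.05 (37.8% of all genes), with a median log2 fold change of 1.71 and 7 above 0. When MBV replicate 3 was left out the median turned to −0.80, with 3 of 9 above 0, and 3 had an unadjusted p under 0.05. F13a1, the A chain of coagulation factor XIII, then passed as lower (−2.68 ± 0.55, edgeR FDR 0.00336), a gene named after its value was seen. Of 8 neutrophil markers tested, 1 passed, the granule gene Ltf, which was lower (−2.67 ± 0.70, edgeR FDR 0.0220). Ltf passed in 4 of the 6 fits that leave out a library. The list did not share its direction, with 6 of 8 above 0 and a median log2 fold change of 0.41. Without MBV replicate 3 it had 3 above 0 and a median of −0.71.

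For fluvastatin against PBS, edgeR and DESeq2 each called 0 of the 12 Fc signalling, 9 integrin and 10 transcription factor genes, of which 0, 1 and 0 had an unadjusted p under 0.05. Of all genes, 19.6% were called and 32.5% had such a p. Of the 9 other monocyte markers, 1 was called lower, Lyz2 (−1.31 ± 0.34, FDR 0.0240). As a list, 0 of these 9 were above 0, with a median log2 fold change of −1.31, and 3 had an unadjusted p under 0.05 in edgeR. Of 8 neutrophil markers tested, 2 were above 0, with a median of −1.75, and 3 had such a p. The microglial gene Gpr34 (−0.56 ± 0.17, FDR 0.0458) and the neutrophil genes Ltf (−2.70 ± 0.68, FDR 0.0203) and S100a8 (−2.72 ± 0.81, FDR 0.0393) were called lower too. Each of these 4 calls, Lyz2 included, was lost when at least 1 library was left out: Lyz2 without fluvastatin replicate 3 (FDR 0.0859), Ltf in 3 of 6 such fits, Gpr34 in 5 and S100a8 in all 6 (highest FDR 0.105, 0.171 and 0.123). Between MBV and fluvastatin, within 1 library set, edgeR and DESeq2 each called 0 of the 103 list genes tested, and 23 had an unadjusted p under 0.05 in edgeR, among them 5 of the 9 other monocyte markers, while 10.7% of all genes did. After MBV replicate 3 was left out, 0 of the 9 monocyte markers had such a p, and their median log2 fold change fell from 2.55 to 1.00, with 6 above 0. In that fit, where 1.06% of all genes were called, 4 of 6 lens markers and 2 of 10 transcription factors passed as higher, Cebpb (0.97 ± 0.20, FDR 0.0448) and Nr4a1 (0.61 ± 0.083, FDR 0.00982). Both genes were named after their values were seen. Among markers of other tissues, the vascular cadherin Cdh5 rose with MBV against PBS (0.69 ± 0.18, FDR 0.0195), though not without PBS replicate 1 or 2 (FDR 0.0638 and 0.0712). All 6 lens markers rose with MBV against PBS, with Cryba1 at 5.63 ± 0.54 (FDR 0.000531), and 5 of 6 pigment markers were lower in both comparisons with PBS, with Pmel at −2.44 ± 0.19 for MBV and −2.01 ± 0.13 for fluvastatin (FDR 0.000307 and 9.23e-05). Of 7 red cell and platelet markers, 3 were higher and 1 was lower in each comparison with PBS, with the globin Hba-a2 at 1.46 ± 0.19 for MBV and 1.47 ± 0.21 for fluvastatin (FDR 0.00107 and 0.00171). Of 9 retina markers, 5 were lower in each, with the Müller glia gene Rlbp1 at −0.39 ± 0.040 for MBV and −0.29 ± 0.044 for fluvastatin (FDR 0.00056 and 0.00219). With MBV replicate 3 left out, MBV against PBS gave 6 lens markers higher, 5 pigment and 7 retina markers lower, and 4 red cell and platelet markers higher with 1 lower.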

How the data were processed

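The authors extracted RNA with TRIzol, made libraries with a TruSeq total RNA kit and sequenced 75-base paired-end reads. Reads were aligned to GRCm39 and counted in CLC Genomics Workbench, and the deposited values used here are the authors' raw counts per gene. The annotation release and strand setting are not given in the sources used here. Groups were taken from the labels. In 1 of 4 tables the 6 count columns carry no library or group name, so they were not used, and comparisons with the combined treatment and fits across all 12 libraries were not made. The tables also hold the authors' fold changes, p-values and FDR values, which were not used. The 10 genes and all lists were chosen with earlier results of these data known.

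Pairs of groups were fitted with edgeR 4.0.16 (quasi-likelihood test, TMM, R 4.3.3) over genes with a count in at least 1 library, with Benjamini-Hochberg adjustment and a threshold of 0.05. DESeq2 1.42.0, other scalings, a filter of 10 counts in 2 libraries, a replicate block, 1 fit of all 9 libraries and leaving out each library were alternatives. The fits were tested on simulated data. From the related lists, the text names per comparison up to 3 genes with the smallest p among those called, and defining markers near 0. The results of 2 list genes are not reported here. Like-patterned genes are the 6 with the highest r to the mean z-score of log2(CPM + 0.5), among genes with a mean CPM of at least 1. The SE of an edgeR log2 fold change was not given by the fit. It was calculated as the absolute fold change on the log2 scale divided by the square root of the quasi-likelihood F statistic. The 95% intervals of fold changes are built on that SE. Ratios of counts carry exact (Clopper-Pearson) 95% intervals. Exon lengths, overlaps and shared windows came from GENCODE vM39 (GRCm39), promoters from RefSeq.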

Additional observations from a re-analysis of the deposited data

How the results depend on the processing

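In MBV against PBS, the number of the 10 genes past an FDR of 0.05 was 0 and became 3 with the replicate block (Ly6c2, Fcgr1 and Itgam), 2 in 1 fit of all 9 libraries (Ly6c2 and Fcgr1) and 0 to 3 when single libraries were left out: Itgam without PBS replicate 3, Ly6c2 without MBV replicate 1, Ly6c2, Fcgr1 and Fcer1g without MBV replicate 2, and 0 without MBV replicate 3. In MBV against fluvastatin and fluvastatin against PBS it stayed 0 in every alternative run. The study's own test, made in CLC Genomics Workbench, listed Fcgr1 and the monocyte markers Ccr2 and Plac8 as higher with MBV than with PBS. The absence of calls for Fcgr1, Ccr2 and Plac8 thus depends on the test. The study's lists hold genes past an FDR of 0.05 with a change of at least 2-fold. For the combined treatment, not analysed here, the study listed each of the 10 genes except Fcgr3 as higher than with PBS. Over all genes, the 11 calls of MBV against fluvastatin became 5 with a filter of 10 counts in 2 libraries, 116 with DESeq2, 0 with the replicate block and 38 in 1 fit of all 9 libraries, and ranged from 0 to 197 with single libraries left out. The 4937 calls of MBV against PBS ranged from 2711 to 5664 and the 3687 of fluvastatin against PBS from 1726 to 4402 in the same way. The replicate numbers do not pair the samples: deviations of same-numbered libraries correlated between −0.366 and 0.159. With a minimum mean of 10 counts in place of 5, chosen after seeing the data, Ly6c2 and Fcgr4 drop out, 8 of 8 genes were highest in MBV replicate 3 (11.3% of genes), and 7 of 8 exceeded 1.5 times the other MBV libraries (4.34%). The alternatives set for the combined treatment and for fits of 12 libraries were not run. Depth limits Ly6c2 and Fcgr4 most.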
